A study of Sus scrofa with 13 samples.

Results

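Complement is a cascade of plasma proteases that marks damaged cells and microbes for removal. In its classical pathway C1q binds a target, C1R then cleaves C1S, and C1S cleaves the next components until C3 and C5 are activated and a pore can be built in the target's membrane. Host cells are spared by regulators: CFI (factor I) cuts activated C3 and C4, clusterin (CLU) binds pore precursors in solution, and CD59 on the cell surface stops the last step of pore building. The genes described here are these 5 proteases and regulators, C1S, C1R, CD59, CFI and CLU. They were chosen by gene symbol from the annotation of the arrays. All 5 were measured, each by 1 probe set, out of 10283 named genes.

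RNA from biceps femoris, a thigh muscle, was hybridised to whole-transcript arrays for 13 pigs of the German Landrace breed, 1 array each. They were dystrophin knockout (DMD KO) piglets at 2 days (n = 4), wild-type (WT) piglets at 2 days (n = 3), DMD KO pigs at 3 months (n = 3) and WT pigs at 3 months (n = 3). DMD KO animals lacked exon 52 of DMD, the dystrophin gene, and came from nuclear transfer of primary kidney cells carrying a modified bacterial artificial chromosome. Their muscle was collected right after their own death, whereas WT animals of matching age were euthanised, so genotype, cloning and manner of death cannot be told apart in any genotype difference below. The DMD KO groups of the 2 ages are different animals that died at those ages. Age and early or later death cannot be told apart between the DMD KO groups, nor in a change of the genotype difference with age. The design text calls the animals biological replicates.

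Values are log2 levels as deposited, and a difference of 1 is thus a 2-fold change. Array medians ran from 7.32 to 7.38 and 25th percentiles from 6.53 to 6.61. Precision is limited by how few arrays there are. WT replicate 3 at 2 days stood apart, with a mean correlation of 0.918 to the other arrays, so calls at 2 days were repeated without it. Both DMD probe sets were uncalled between genotypes, with differences of 0.11 and 0.23 at 2 days (limma adjusted p = 0.705 and 0.423) and of -0.22 and 0.00 at 3 months (adjusted p = 0.528 and 0.996). The sources used here do not place them relative to exon 52, so they do not check the knockout. The 5 measured muscle fibre markers, ACTA1, MYH7, CASQ1, PYGM and ACTN2, had mean levels from 11.29 to 12.19 on the arrays, above the arrays' 95th percentiles (9.21 to 9.83).

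C1S, C1R and CD59 were higher in DMD KO than in WT muscle at both ages. CFI and CLU were not called at 2 days and were higher in DMD KO at 3 months, CFI by the widest margin of the 5. The tests were limma fits over all 21893 probe sets, with calls made at a Benjamini-Hochberg adjusted p under 0.05. The RNA is from whole muscle, in which more cells of a type and more RNA per cell cannot be told apart. At 2 days 3 of the 5 genes were called higher, where 7.09% of all probe sets were. At 3 months 5 of 5 were called higher, where 4.62% of all probe sets were. The median difference of the 5 was 0.66 at 2 days and 1.22 at 3 months, beside -0.02 and -0.05 over all probe sets.

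**Figure D1:**
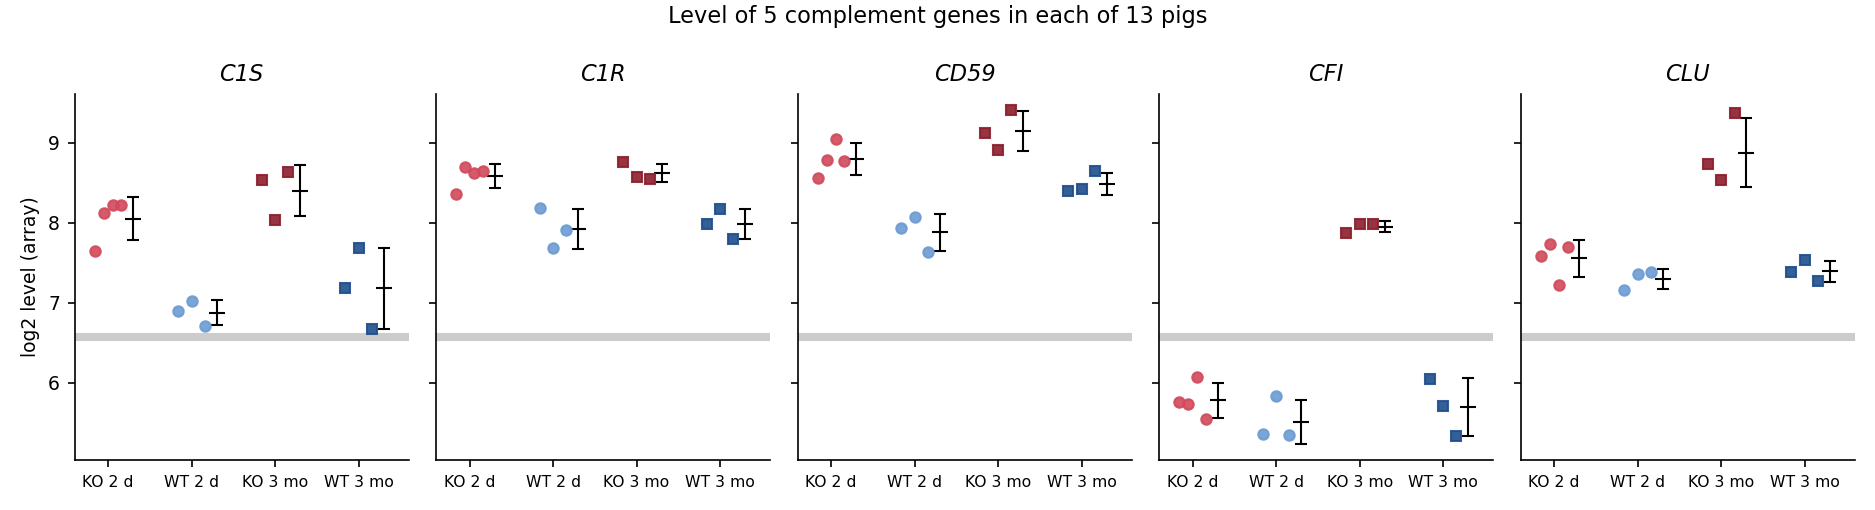
Log2 level of the 5 genes in every animal, by genotype and age, with the mean and SD of each group beside its points and the range of the arrays' 25th percentiles as a grey band. C1S, C1R and CD59 lie higher in DMD KO than in WT at both ages, while CFI lies at 7.87 to 7.99 in DMD KO at 3 months and at or below 6.07 in the other groups.

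C1S, the protease that cleaves C4 and C2, had levels of 7.65, 8.12, 8.22 and 8.22 in DMD KO piglets at 2 days, against 6.90, 7.02 and 6.71 in WT piglets. Every DMD KO value lay above every WT value, and DMD KO replicate 1 was the lowest of its group. The difference was 1.18 ± 0.22 (SE, limma adjusted p = 0.00725), or 2.26-fold, with a 95% interval from 0.69 to 1.66. Groups that did not overlap, with DMD KO above, were found for 14.1% of all probe sets at this age.

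At 3 months C1S had levels of 8.53, 8.04 and 8.64 in DMD KO pigs, against 7.19, 7.68 and 6.67 in WT pigs. The groups again did not overlap, as for 12.9% of all probe sets in this direction, and WT replicate 2 was the highest of its group. The difference was 1.22 ± 0.24 (SE, adjusted p = 0.00919), or 2.34-fold. It was not called when DMD KO replicate 3 was left out (1.10, adjusted p = 0.05) or when the 3-month groups were fitted alone (adjusted p = 0.0512).

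C1R, the protease that activates C1S, had levels of 8.36, 8.70, 8.62 and 8.65 in DMD KO piglets at 2 days, against 8.18, 7.68 and 7.91 in WT piglets. The groups did not overlap, and WT replicate 1 came closest to the DMD KO values. The difference was 0.66 ± 0.13 (SE, adjusted p = 0.00972), or 1.58-fold. At 3 months the levels were 8.76, 8.57 and 8.55 in DMD KO pigs, against 7.98, 8.17 and 7.80 in WT pigs.

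C1R was thus higher by nearly the same amount in the older animals, at 0.64 ± 0.14 (SE, adjusted p = 0.0184). That call ended without DMD KO replicate 1 (0.57, adjusted p = 0.0694) and without WT replicate 3 (0.55, adjusted p = 0.0893).

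Within an animal the level of C1S minus that of C1R was larger in DMD KO, by 0.52 at 2 days and 0.58 at 3 months. At 2 days it ran from -0.71 to -0.40 in DMD KO piglets and from -1.28 to -0.66 in WT piglets. At 3 months it ran from -0.53 to 0.09 in DMD KO pigs and from -1.13 to -0.49 in WT pigs, so the genotypes overlapped at both ages. An exact two-sided permutation of genotype within each age gave p = 0.00714 for the mean of both ages, over 700 arrangements. Within single ages the exact permutation gave p = 0.0571 at 2 days, where 4 against 3 allows 0.0286, and p = 0.2 at 3 months, where 3 against 3 allows 0.1. This test was added after the values were seen, so its p-values describe a pattern already found in these arrays. How the 2 probe sets respond to equal amounts of RNA was not compared.

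CD59, the surface inhibitor of the complement pore, had levels of 8.56, 8.79, 9.05 and 8.78 in DMD KO piglets at 2 days, against 7.94, 8.07 and 7.63 in WT piglets. All DMD KO values lay above all WT values, and the difference was 0.91 ± 0.15 (SE, adjusted p = 0.00303), or 1.89-fold. At 3 months the levels were 9.13, 8.91 and 9.41 in DMD KO pigs, against 8.40, 8.42 and 8.65 in WT pigs.

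The groups did not overlap at 3 months either, and CD59 was higher in DMD KO by 0.66 ± 0.16 (SE, adjusted p = 0.0281), or 1.58-fold. This was the least firm call of the 5 genes. It ended after quantile normalization (0.52, adjusted p = 0.0664), in a fit of the 3-month groups alone (adjusted p = 0.058), and without DMD KO replicate 1 or 3 or WT replicate 1 or 2 (0.53 to 0.67, adjusted p = 0.0681 to 0.134). CD59 was also the one gene of the 5 whose WT groups did not overlap between ages, as for 7.02% of all probe sets with 3 months above. Its difference of 0.61 ± 0.16 (SE) was not called (adjusted p = 0.0647).

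Without WT replicate 3, the array that stood apart, the calls at 2 days remained for C1S (1.09, adjusted p = 0.0287), C1R (0.65, adjusted p = 0.0298) and CD59 (0.79, adjusted p = 0.0126). Leaving out any other single array also kept these 3 calls at 2 days. CFI (0.19, adjusted p = 0.703) and CLU (0.29, adjusted p = 0.527) were not called at 2 days without that array either.

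CFI, the soluble protease that inactivates C3 and C4 fragments with the help of cofactors, had levels of 5.76, 5.73, 6.07 and 5.55 in DMD KO piglets at 2 days, against 5.36, 5.83 and 5.35 in WT piglets. These values overlapped and lay below the arrays' 25th percentiles, so the probe set was dim in newborn muscle of both genotypes. The difference of 0.27 ± 0.17 (SE, adjusted p = 0.335) was not called, with a 95% interval from -0.11 to 0.64.

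At 3 months CFI had levels of 7.87, 7.99 and 7.99 in DMD KO pigs, against 6.05, 5.71 and 5.33 in WT pigs. The 3 DMD KO animals lay within 0.13 of each other and above the arrays' medians, while the WT pigs were as dim as newborn muscle. CFI was higher in DMD KO by 2.26 ± 0.19 (SE, adjusted p = 2.83e-05), and the 95% interval of the difference was 1.85 to 2.66. No fold is given, since the WT mean of 5.69 lay below the 25th percentiles and signal over background was not analysed here. By size this difference stood at place 44 among the 21893 probe sets, and by p-value at place 22.

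CLU, a secreted chaperone that also keeps pore precursors out of membranes, had levels of 7.58, 7.73, 7.22 and 7.70 in DMD KO piglets at 2 days, against 7.16, 7.36 and 7.38 in WT piglets. DMD KO replicate 3 lay among the WT values, and the difference of 0.25 ± 0.18 (SE, adjusted p = 0.372) was not called. At 3 months the levels were 8.74, 8.53 and 9.37 in DMD KO pigs, against 7.38, 7.53 and 7.27 in WT pigs.

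All 3 DMD KO pigs thus lay above all WT pigs, with replicate 3 the highest. CLU was higher in DMD KO at 3 months by 1.49 ± 0.19 (SE, adjusted p = 0.000599), or 2.80-fold, with a 95% interval from 1.07 to 1.90.

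**Figure D2:**
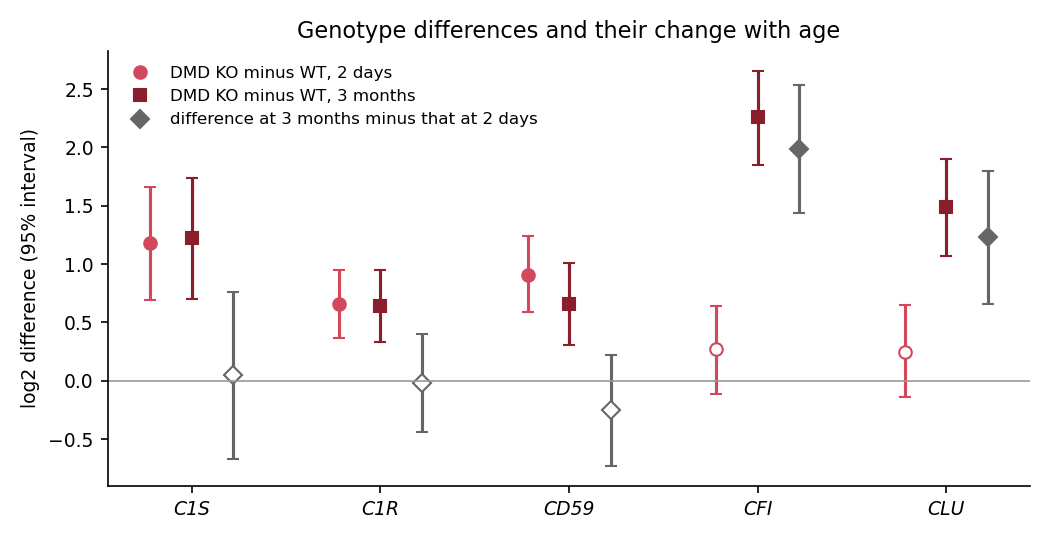
Log2 difference, DMD KO minus WT, in piglets and in older pigs, and the change of that difference with age, with 95% intervals from limma; filled marks were called at an adjusted p under 0.05. The change with age is 1.99 for CFI and 1.23 for CLU, and its intervals for C1S, C1R and CD59 include 0.

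Whether the genotype difference itself changed with age was tested as an interaction, the difference at 3 months minus that at 2 days. It was called for CFI (1.99 ± 0.25, SE, adjusted p = 0.000814) and CLU (1.23 ± 0.26, adjusted p = 0.018), where 3.06% of all probe sets were called in that direction. For C1S it was 0.05, for C1R -0.02 and for CD59 -0.25, none of them called. Intervals of 95% ran from -0.67 to 0.76 for C1S, from -0.44 to 0.40 for C1R and from -0.73 to 0.22 for CD59. The test thus bounds a change with age in C1R more closely than in C1S, and does not show that the differences were equal.

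Between ages within a genotype, CFI and CLU were called in DMD KO muscle, between different animals that died at 2 days and at 3 months. At 3 months CFI was higher than at 2 days in DMD KO by 2.17 ± 0.17 (SE, adjusted p = 1.43e-05) and CLU by 1.32 ± 0.18 (SE, adjusted p = 0.000603). These were 2 of the 5 genes, where 4.47% of all probe sets were called higher. C1S, C1R and CD59 differed between ages in DMD KO by 0.35, 0.04 and 0.36, none of them called.

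In WT muscle 0 of the 5 genes were called between ages by limma, and 1 had an unadjusted p under 0.05 (CD59). Of all probe sets 1.71% were called higher and 1.18% lower at 3 months in WT. The differences ran from 0.06 for C1R to 0.61 for CD59.

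The order of the group means was the same for the 5 genes, with DMD KO at 3 months highest, DMD KO at 2 days next, then WT at 3 months and WT at 2 days lowest. Not every step of that order was called. For C1S, C1R and CD59 neither the step between the DMD KO groups nor that between the WT groups was. For CFI and CLU the 3 lower groups overlapped.

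The wider complement system was described from a list of genes by role, of which 26 besides these 5 were measured. At 2 days 1 of the 26 was called higher and 0 lower, with a median difference of -0.12, where 7.09% and 2.85% of all probe sets were called in these directions (6 of the 26 had an unadjusted p under 0.05). The one called was MASP1, a gene of the lectin pathway listed here with the proteases. Which of the gene's transcripts its probe set measures was not analysed here. At 3 months 7 of the 26 were called higher and 0 lower, with a median of -0.03, where 4.62% and 1.36% of all probe sets were. The lists were drawn up with earlier results of these data known, so these counts describe the genes and do not test the pathway.

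**Figure D3:**
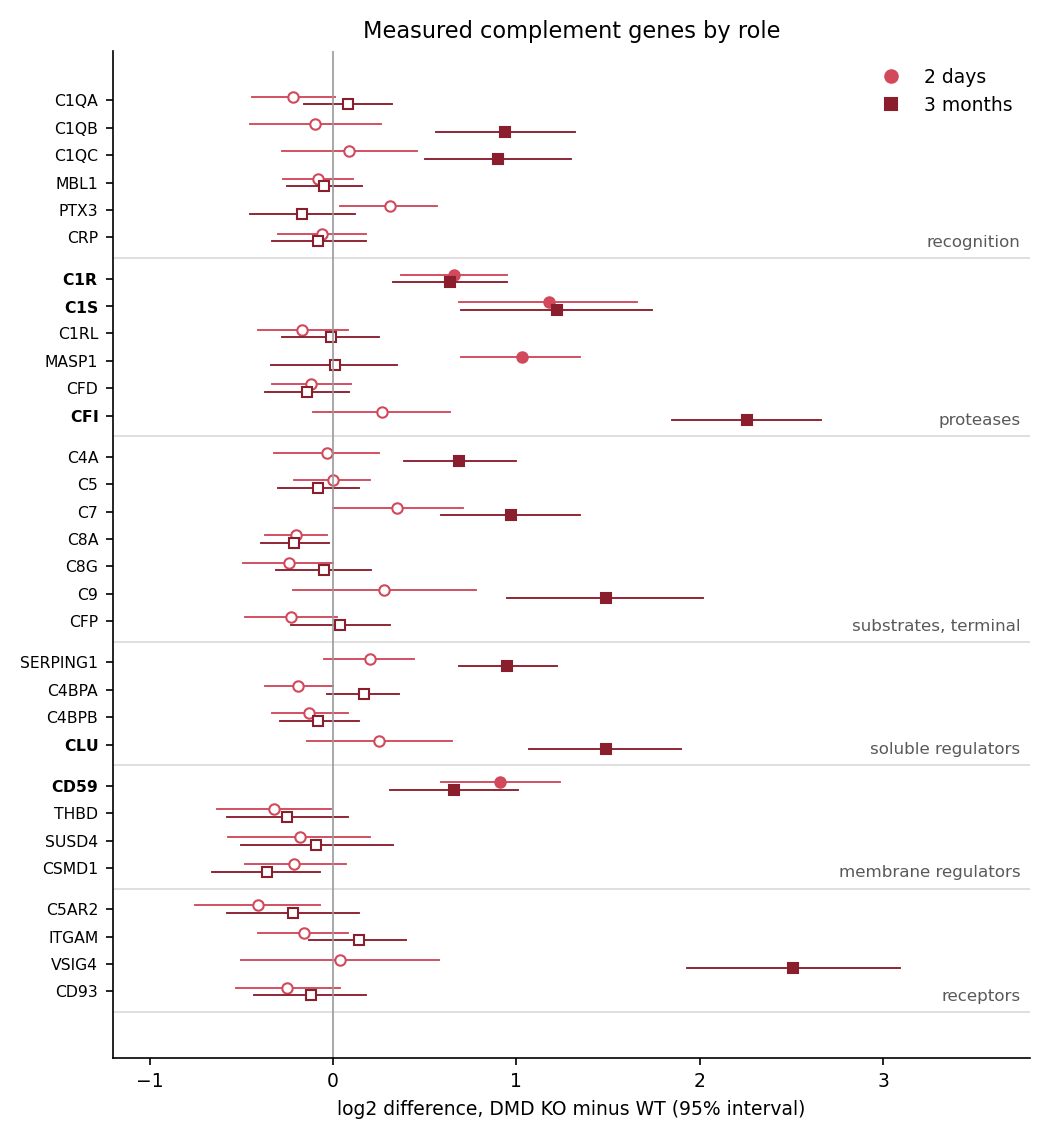
Log2 difference between DMD KO and WT, with 95% intervals, at 2 days and 3 months for each measured complement gene, grouped by role; the 5 genes described here are in bold, and filled marks were called. Most of the other genes lie near 0 at both ages, with VSIG4 at 2.51 and C9 at 1.49 farthest to the right at 3 months.

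Among recognition molecules, C1QB and C1QC, which encode chains of C1q, were higher in DMD KO at 3 months. C1QB had levels of 8.38, 8.67 and 8.93 in DMD KO pigs, against 8.01, 7.72 and 7.42 in WT pigs, a difference of 0.94 (adjusted p = 0.00677). Its interaction of 1.04 was called (adjusted p = 0.0253), but in only 6 of the 13 fits that left out 1 array (0.89 to 1.19, adjusted p up to 0.0636). C1QC differed by 0.90 (adjusted p = 0.0115). C1QA, the gene of the remaining C1q chain, differed by 0.08 (adjusted p = 0.722), with values from 8.19 to 8.35 in DMD KO and from 8.11 to 8.31 in WT. At 2 days the differences of C1QA, C1QB and C1QC were -0.22, -0.10 and 0.09, none of them called. The classical proteases C1R and C1S were therefore called at an age at which no C1q chain was.

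Of the other genes listed with the proteases only MASP1 was called, and its pattern ran the other way from that of CFI. Its levels at 2 days were 8.48, 8.59, 8.06 and 8.73 in DMD KO piglets, against 7.27, 7.55 and 7.49 in WT piglets, higher in DMD KO by 1.03 ± 0.15 (SE, adjusted p = 0.00172), and by 1.05 without WT replicate 3 (adjusted p = 0.00512). In the older pigs it was not called (0.01, adjusted p = 0.985), at 7.41, 7.25 and 7.18 in DMD KO pigs and 7.20, 7.48 and 7.14 in WT pigs. Its interaction of -1.02 was called (adjusted p = 0.018), where 1.99% of all probe sets were called in that direction. C1RL, a protease-like relative of C1R, differed by -0.17 at 2 days and -0.01 at 3 months, and CFD (factor D), the starter protease of the alternative pathway, by -0.12 and -0.14, with neither called.

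Among substrates and pore components 3 of 7 were higher in DMD KO at 3 months, where 4.62% of all probe sets were. C4A, the substrate of C1S, had levels of 8.04, 7.76 and 7.62 in DMD KO pigs, against 7.10, 7.10 and 7.14 in WT pigs, a difference of 0.69 (adjusted p = 0.0111). C7 and C9, components of the pore, were higher by 0.97 (adjusted p = 0.0054) and 1.49 (adjusted p = 0.00317). Their WT means of 6.22 and 5.65 lay below the 25th percentiles, as CFI's did. C5, C8A, C8G and CFP (properdin) were not called at either age. The probe set of C5 was dim, with a mean of 5.36 over all arrays, below the 25th percentiles. C3, CFB, CD46, CD55 and C3AR1 were not analysed here.

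Of the other soluble regulators, SERPING1 (C1 inhibitor), the serpin that blocks C1R and C1S, was called at 3 months. Its levels were 9.83, 9.90 and 9.87 in DMD KO pigs, against 9.01, 8.99 and 8.74 in WT pigs. The difference was 0.95 ± 0.12 (SE, adjusted p = 0.000496), or 1.94-fold, and its interaction of 0.76 was called (adjusted p = 0.0194). Without DMD KO replicate 2 or WT replicate 3 at 3 months the interaction was not called (adjusted p = 0.0517 and 0.0532). At 2 days the difference of 0.20 was not called.

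SERPING1 was thus not called at 2 days, when C1R and C1S were. The members of the C4b-binding protein, C4BPA and C4BPB, were not called between genotypes at either age.

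Of the other membrane regulators THBD, SUSD4 and CSMD1 were measured, and their differences ran from -0.36 to -0.09 at 3 months and from -0.32 to -0.18 at 2 days, with none called. CD59 was therefore the one measured membrane regulator that was called in either genotype comparison. Of 4 receptors VSIG4, a complement receptor of tissue macrophages, was called. Its levels at 3 months were 8.11, 8.78 and 9.60 in DMD KO pigs, against 6.42, 6.13 and 6.42 in WT pigs, higher in DMD KO by 2.51 ± 0.27 (SE, adjusted p = 0.000157). At 2 days it differed by 0.04, and its interaction was called (2.46, adjusted p = 0.00198). C5AR2, ITGAM and CD93 were not called.

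At 3 months 8 of the 26 genes were called higher than at 2 days in DMD KO muscle, and 2 lower. Of all probe sets 4.47% and 3.57% were called in these directions. Those lower at 3 months were MASP1 (-1.18, adjusted p = 0.000347) and PTX3 (-0.50, adjusted p = 0.0245). PTX3, a pentraxin that binds C1q, is named here after its value was seen. In WT muscle 0 of the 26 were called by limma in either direction between ages, and 1 had an unadjusted p under 0.05. Of all probe sets only 1.71% were called higher and 1.18% lower in WT, so 0 of 26 is near those shares.

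Of 9 measured macrophage markers 7 were higher in DMD KO at 3 months, and 0 were called at 2 days, when 1 had an unadjusted p under 0.05. Of all probe sets 4.62% were called higher at 3 months, and 7.09% higher and 2.85% lower at 2 days. The mean level of the 9 ran from 7.54 to 7.71 in DMD KO and from 7.44 to 7.66 in WT at 2 days. At 3 months it ran from 8.49 to 8.98 in DMD KO and from 7.34 to 7.90 in WT, with no overlap. C1QB and C1QC are in this list as well as in the complement list. CSF1R, the growth factor receptor of macrophages, was not among the 7 (-0.04, adjusted p = 0.875).

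Fibroblast markers moved with genotype in opposite directions at the 2 ages. Of 9 measured, 6 were lower in DMD KO at 2 days, with or without WT replicate 3, and 5 were higher at 3 months. The shares of all probe sets called in these directions were 2.85% and 4.62%. Their mean level ran from 8.82 to 9.04 in DMD KO and from 9.82 to 9.98 in WT at 2 days, and from 10.06 to 10.19 in DMD KO and from 9.19 to 9.65 in WT at 3 months. C1S and C1R, which fibroblasts are known to make, were higher in DMD KO at both ages. Of the fibroblast markers FAP, PI16 and DPT were not called at 2 days (-0.06, -0.16 and -0.32). The part of fibroblasts in the C1S and C1R differences was not tested.

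**Figure D4:**
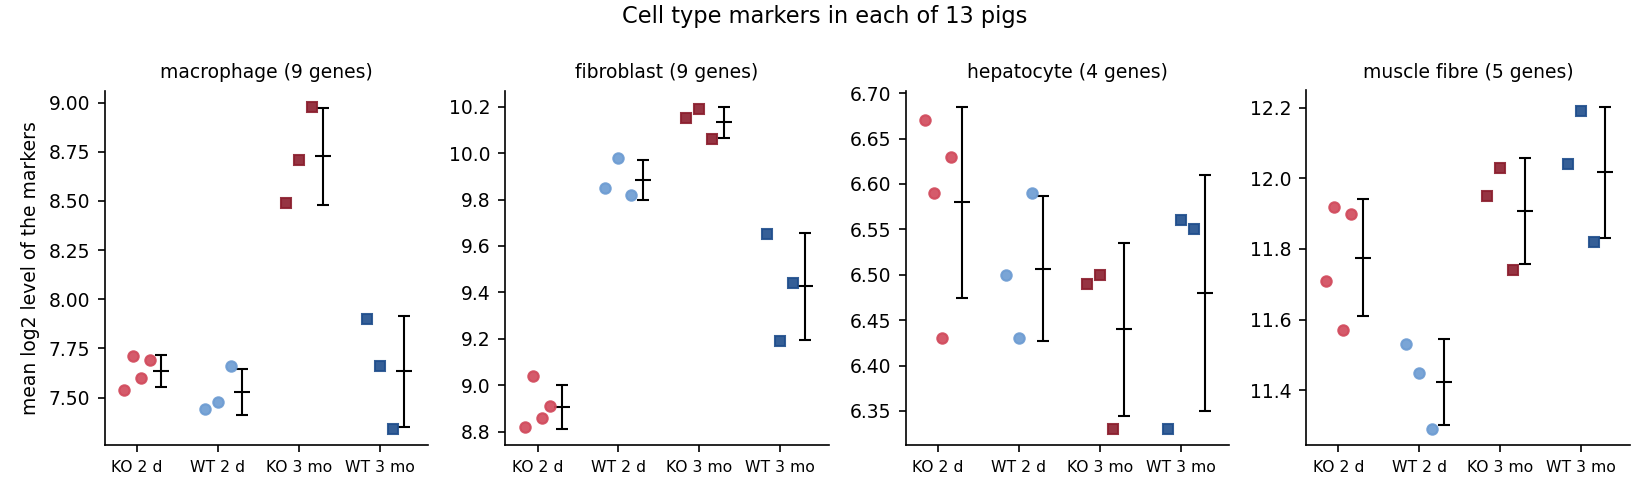
Mean log2 level of the measured markers of macrophages, fibroblasts, hepatocytes and muscle fibres in every animal, with the mean and SD of each group; the vertical axes differ between panels. Macrophage markers lie highest in DMD KO at 3 months (8.49 to 8.98), and fibroblast markers lie lowest in DMD KO at 2 days (8.82 to 9.04).

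The liver makes most of the complement of plasma, so hepatocyte markers were looked at too. ALB (albumin) and FGB (fibrinogen beta) had means over all arrays below the 25th percentiles, and the mean level of the 4 measured markers ran from 6.33 to 6.67 over all arrays. At 2 days 1 of the 4, ALB, was called higher in DMD KO, at a mean of 6.93 against 6.29 in WT (difference 0.64, adjusted p = 0.00861, and 0.63 without WT replicate 3, adjusted p = 0.0266), and 0 were called at 3 months, when 2 had an unadjusted p under 0.05. Of 4 neutrophil, 7 T and NK cell, 3 red blood cell and 4 adipocyte markers 0 were called between genotypes at either age. Lists this short would hold few calls at the shares over all probe sets. Those were 7.09% higher and 2.85% lower at 2 days, and 4.62% and 1.36% at 3 months. With an unadjusted p under 0.05 there were 1 T and NK cell marker at 3 months, 1 adipocyte marker at 2 days, and 0 of the neutrophil and red blood cell markers at either age. Of 5 endothelial markers TEK was called at 2 days (0.65, adjusted p = 0.0461) but not without WT replicate 3 (0.41, adjusted p = 0.179). At 3 months 0 of these 5 were called, and 3 had an unadjusted p under 0.05. Those were PECAM1 (-0.48), KDR (-0.65) and ESAM (-0.34), lower in DMD KO, while TEK differed by 0.17 and VWF by -0.06. Of 2 markers of satellite cells and new fibres NCAM1 was called at 3 months (1.37, adjusted p = 3e-05). Of the 5 muscle fibre markers MYH7 (1.67, adjusted p = 0.00816) and ACTN2 (0.85, adjusted p = 0.00342) were higher in DMD KO at 2 days and CASQ1 was lower (-0.41, adjusted p = 0.0404, and -0.44 without WT replicate 3, adjusted p = 0.0718). At 3 months 1 of the 5, ACTN2, was called higher (0.61, adjusted p = 0.0334) and 0 were called lower. ACTA1 (-0.45), CASQ1 (-0.37) and PYGM (-0.44) were lower with an unadjusted p under 0.05, and MYH7 differed by 0.11. The list of muscle fibre markers had mean levels from 11.57 to 11.92 in DMD KO and from 11.29 to 11.53 in WT at 2 days. At 3 months these ran from 11.74 to 12.03 in DMD KO and from 11.82 to 12.19 in WT. The part of any of these cell types in the results for the 5 genes was not tested.

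Over the 13 arrays the level of CFI had a correlation of 0.96 with the mean of the macrophage markers, and CLU one of 0.95. Much of that is the distance between the 3 DMD KO pigs at 3 months and the other 10 animals. For deviations from the group means the values were 0.43 for CFI and 0.56 for CLU. For C1S, C1R and CD59 the values over the arrays were 0.67, 0.52 and 0.64, and those within groups 0.38, 0.08 and -0.09. With fibroblast markers C1S, C1R and CD59 had -0.10, -0.20 and -0.07 over the arrays, and CFI and CLU had 0.59 and 0.50. Macrophage markers were not the only list with high values. With the markers of satellite cells and new fibres CFI and CLU had 0.89 and 0.88 over the arrays, and 0.22 and 0.24 within groups. C1S, C1R and CD59 had 0.80, 0.75 and 0.72 with that list, above their values with macrophage markers. Within groups CFI had 0.70 with endothelial and 0.65 with T and NK cell markers, and -0.76 with hepatocyte markers. Over the arrays CFI had -0.59, 0.54 and -0.48 with these lists. C1R had 0.52 within groups and 0.37 over the arrays with muscle fibre markers. All these correlations are descriptions over arrays that share genotype and age, and carry no test.

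Among the 5 genes the highest correlations over the 13 arrays were those of C1S with C1R and of CFI with CLU. C1S and C1R had r = 0.91 (rho = 0.83) and still 0.54 within groups. CFI and CLU also had r = 0.91 (rho = 0.57), but -0.09 within groups. The likeness of CFI and CLU is thus one of group means. For C1S and C1R the value within groups is pooled over groups that differ: in WT piglets replicate 1 had the highest C1R and replicate 2 the highest C1S. These values carry no test.

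**Figure D5:**
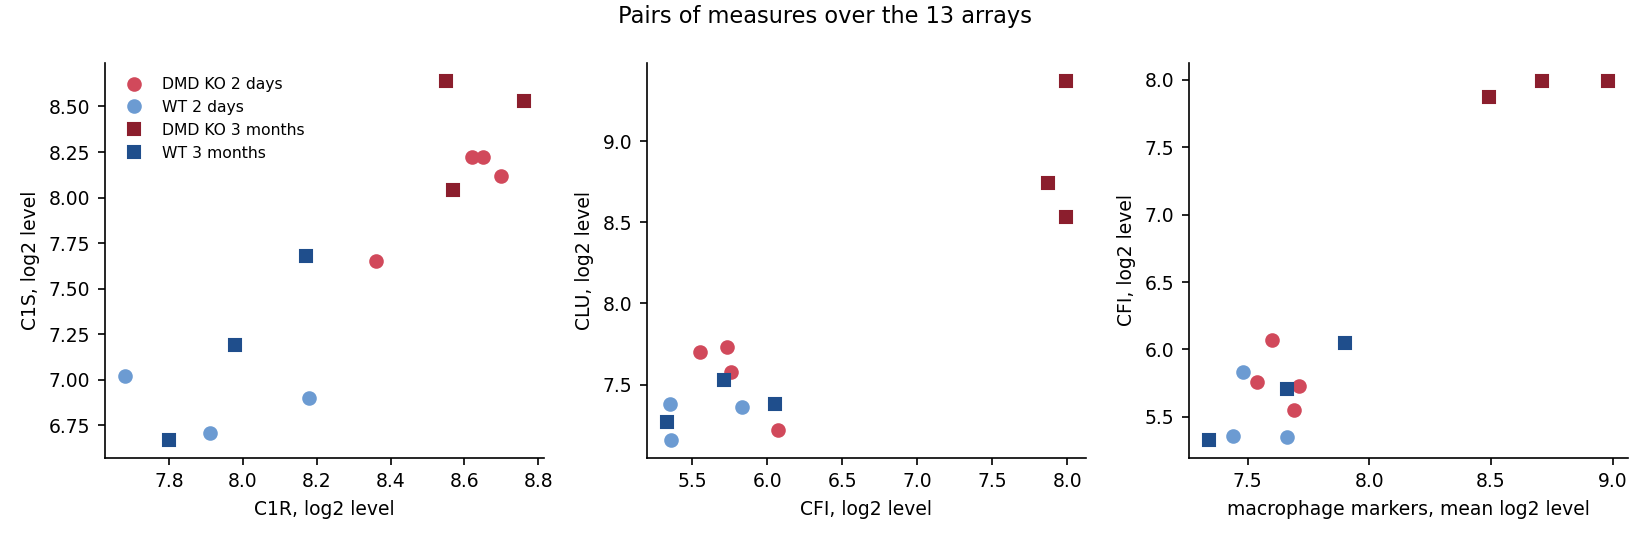
Each point is 1 animal, placed by the log2 levels of C1R and C1S (left), of CFI and CLU (middle), and by the mean of the macrophage markers and CFI (right). C1R and C1S spread along a line with WT low and DMD KO high at both ages, while in the other panels the 3 DMD KO animals at 3 months stand away from the other 10.

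The genes most like each of the 5 were taken as those with the highest Pearson correlation over the 13 arrays, among 5651 named genes (5652 for CFI) whose probe sets lay above the median level. For CFI these were P2RY12, a receptor for ADP (r = 0.98, 0.88 within groups), FCER1G, an adaptor of immune receptors (r = 0.98, 0.70 within groups), and GMFG (r = 0.97, 0.61 within groups). FCER1G, which is also in the macrophage list, differed between genotypes by 0.36 in piglets (adjusted p = 0.324) and by 2.12 in the older pigs (adjusted p = 0.000267). For CLU they were IFI30, a lysosomal thiol reductase (r = 0.96), CD53, a tetraspanin of leukocytes (r = 0.95), and LIPA, the lysosomal acid lipase (r = 0.94).

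For C1R the leading gene was ANKRD1, a stretch-responsive protein of the muscle sarcomere (r = 0.95, rho = 0.90, 0.87 within groups), followed by LOC396711 (r = 0.93) and C1S. ANKRD1 was higher in DMD KO piglets by 2.41 (adjusted p = 0.0241, and 2.22 without WT replicate 3, adjusted p = 0.0866) and in the older DMD KO pigs by 3.23 (adjusted p = 0.00919). For C1S the 3 genes were ATP6AP2, a subunit linked to the proton pump (r = 0.91), the kinase MARK2 (r = 0.91) and C1R (r = 0.91). For CD59 they were SSR2, of the translocon of the endoplasmic reticulum (r = 0.94, 0.81 within groups), the nuclear import factor IPO5 (r = 0.91) and FAM49B (r = 0.90). C1R and C1S were thus each among the 3 genes most like the other.

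C1R and C1S are also next to each other in the pig genome, with no other protein-coding gene between them in the RefSeq annotation of Sscrofa11.1. C1RL lies on the far side of C1R and was not called, as given above, and RBP5 and CLSTN3 follow. RBP5, a retinol-binding protein, was lower in DMD KO at 2 days (-0.67, adjusted p = 0.0128, and -0.53 without WT replicate 3, adjusted p = 0.0526) and differed by 0.18 at 3 months (adjusted p = 0.537), while CLSTN3 was not called at either age. The genes on the side of C1S were not measured under their symbols. None of these 3 measured neighbours was called higher in DMD KO at 2 days or 3 months, where 7.09% and 4.62% of all probe sets were.

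Within 4 protein-coding genes to either side, CFI had 7 measured neighbours. Of these MCUB, of the mitochondrial calcium uniporter, was higher in DMD KO at 3 months (1.11, adjusted p = 0.00105) and RRH, an opsin, at 2 days (0.94, adjusted p = 0.00171, and 0.84 without WT replicate 3, adjusted p = 0.00686). CLU had 6 measured neighbours, of which ESCO2, a cohesin acetyltransferase, was lower at 2 days (-0.60, adjusted p = 0.0226, and -0.69 without WT replicate 3, adjusted p = 0.0247) and none was called at 3 months. Of 6 measured neighbours of CD59 none was called at either age. Over all probe sets 7.09% were called higher and 2.85% lower at 2 days, and 4.62% and 1.36% at 3 months.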

How the data were processed

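RNA of 13 pig muscles was measured on whole-transcript arrays, 1 array per animal. Per the submitters' processing notes, the authors used Affymetrix Power Tools; its version, background correction and normalization were not given in the sources used here. Values as deposited were read as log2 levels, a base inferred from their range (2.81 to 13.8), and were used unchanged and unfiltered. Of 21893 probe sets 11028 carried 1 symbol, 418 several and 10447 none. Symbols were updated by gene number (5 changed), and a gene was represented by its probe set with the highest mean. Linear models over the 4 groups were fitted to each probe set (limma 3.58.1, R 4.3.3, lmFit and eBayes), leaving 9 residual degrees of freedom, and two-sided p-values were adjusted by Benjamini-Hochberg over all probe sets. The fit was tested on simulated data. Groups came from the sample titles. Genes were named as the 5 members, the other complement genes called in a genotype comparison or the interaction, fixed further ones (C1QA, C3 and the like), and the 3 genes most like each member; other uncalled complement genes, markers and neighbours were named after their values were seen. The members, lists and tests were chosen with earlier results of these data known. Alternatives were contrast-only fits, trended and robust eBayes, quantile normalization, median centring, a filter on low probe sets, array weights, the replicate number as a block, single arrays left out, averaged probe sets and, chosen after seeing the data, the leading axis of the within-group spread as a covariate. Motifs and sequences were not analysed here.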

Additional observations from a re-analysis of the deposited data

Results flagged for a closer look

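By limma's interaction test the genotype difference at 3 months was called apart from that at 2 days for 6 of the measured complement genes (the 5 and the 26 others), 5 with a larger and 1 with a smaller difference, where 3.06% and 1.99% of all probe sets were called in these directions. It was larger at 3 months by 1.99 for CFI (adjusted p = 0.000814), 1.23 for CLU (adjusted p = 0.018), 1.04 for C1QB (adjusted p = 0.0253), 0.76 for SERPING1 (adjusted p = 0.0194) and 2.46 for VSIG4 (adjusted p = 0.00198). For MASP1 it was smaller at 3 months, at -1.02 (adjusted p = 0.018). When 1 array at a time was left out, CFI, CLU, VSIG4 and MASP1 were called in 13 of 13 fits, with CLU's adjusted p reaching 0.0499 and MASP1's 0.0481. SERPING1 was called in 11 of the 13 (adjusted p up to 0.0532) and C1QB in 6 (adjusted p up to 0.0636). In all 3 DMD KO pigs at 3 months CFI, CLU, C1QB, SERPING1 and VSIG4 lay above all 3 WT pigs. In all 4 DMD KO piglets at 2 days MASP1 lay above all 3 WT piglets. Groups did not overlap in this direction for 12.9% of all probe sets at 3 months and 14.1% at 2 days. These genes were picked by a call on the same arrays, so the separation adds no support to the calls. No animal stood apart from its group in any of the 5 genes among the 4 DMD KO piglets, the one group large enough to be looked at for this.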

How the results depend on the processing

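CFI and CLU kept their calls at 3 months, between ages in DMD KO and (CFI only) in the interaction under every alternative in which they were tested, as did CD59 at 2 days. Groups of the contrast fitted alone called 3 of the 5 genes at 3 months, and 1275 probe sets at 2 days and 40 between ages in WT. Quantile normalization, the filter on low probe sets, array weights and the axis score each called 1 of the 5 between ages in WT, CD59 (0.67, 0.61, 0.59 and 0.58). The filter left CFI out, so it called 1 of the 5 between ages in DMD KO and 1 in the interaction, and of the other complement genes 3 at 3 months and 5 between ages in DMD KO. Array weights turned C1R between ages in WT to -0.10 and in the interaction to 0.14, neither called, and called 2310 probe sets at 3 months, 3258 and 1225 between ages in DMD KO and WT, and 1892 in the interaction. With the axis score 2 other complement genes were called at 2 days and 8 in the interaction, and 3253, 1983 and 2566 probe sets between ages in DMD KO, in WT and in the interaction. The labels do not say that equal replicate numbers share anything, and the deviations of same-numbered arrays from their group means had correlations from -0.50 to 0.33. With the replicate block, which spends more degrees of freedom, 1 of the 5 was called at 2 days (C1S at 1.12, adjusted p = 0.055, and C1R at 0.64, adjusted p = 0.0664, were not), 3 at 3 months (not C1R, adjusted p = 0.0653, or CD59, adjusted p = 0.0751) and 1 in the interaction (CLU at 1.28, adjusted p = 0.0678), where C1R was 0.01 and C1QB (adjusted p = 0.0767) and SERPING1 (adjusted p = 0.0858) were not called either. Probe sets called under the block were 735, 829, 1087, 325 and 580 for the genotype comparisons at 2 days and 3 months, the age comparisons in DMD KO and WT, and the interaction. Leaving out single arrays gave 3 to 5 of the 5 genes at 3 months, 2 to 5 of the others in the interaction, and 1143 to 3210, 702 to 2036, 1180 to 2294, 368 to 757 and 789 to 1265 probe sets in the same order. Uncalled values near 0 changed sign when single arrays were left out: C1R ran from -0.03 to 0.08 and from -0.06 to 0.19 between ages in DMD KO and WT, and in the interaction C1R ran from -0.15 to 0.11 and C1S from -0.21 to 0.30. The causes of these changes were not tested, and arrays give no counts, so depth could not be weighed.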
